A study of Caenorhabditis elegans with 12 samples.

Results

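The let-7 family of Caenorhabditis elegans was followed across 2 strains and 2 ages of adult worms. Its members were chosen by name, as every mature microRNA of let-7, mir-48, mir-84, mir-241, mir-793, mir-794 and mir-795 listed in the deposited table, and both strands of a hairpin were taken where both were listed. That gave 12 mature microRNAs from 7 genes, of 213 microRNAs in all. The 5p strand of let-7, miR-793 under a name without a strand, and both strands of the other 5 genes were measured.

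MicroRNAs are short RNAs that guide Argonaute proteins to messenger RNAs and lower their output, and members of a family share the seed near the 5′ end that chooses targets. let-7 was found in C. elegans as a heterochronic gene, one that sets when larval cells take up their later fates: without it the lateral hypodermal seam cells repeat a larval programme instead of making adult cuticle. Its targets include lin-41, which encodes a TRIM-NHL protein. miR-48, miR-84 and miR-241 act together at an earlier larval transition by lowering the transcription factor HBL-1. These roles are in larvae, whereas the worms measured here were adults.

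Small RNA was sequenced from whole worms of N2, the wild type, and of strain MT12993, which carries mir-71(n4115), a deletion allele of another microRNA gene, mir-71. Both strains were sampled as adults of day 0 and day 5. Each of these 4 groups has 3 libraries, described as biological triplicates. Worms of every group were grown at 20 °C and moved, shortly after becoming adult, to plates with 0.1 mg/mL 5-fluorodeoxyuridine, which blocks DNA synthesis and so the development of progeny. The mutation is represented by 1 strain, so that other differences between the strains' backgrounds cannot be told apart from the loss of mir-71. Whole worms also mean that fewer cells of a type and less RNA per cell cannot be told apart. Nor can age be told apart from time spent on the 5-fluorodeoxyuridine plates.

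Libraries held 917170 to 4070663 microRNA reads, of which 47720 to 298710 were of the let-7 family. The lowest number for a member in a library was 3 reads. These read numbers were worked out from the spacing of the deposited values and rest on those values alone. The guide strand miR-71-5p was at 90221 to 173431 normalised reads in the 6 N2 libraries and at 52.5 to 189 in the 6 mutant libraries. Every library thus fitted its strain label, whereas the age labels were not checked. Markers of muscle (miR-1-3p), intestine (miR-60-3p), glia (miR-228-5p) and the germline and embryo (miR-35-3p to miR-42-3p, 8 of 8 listed) were measured, as were 3 of 4 listed for neurons, and none was at 0 in every library. Library medians ran from 77.1 to 290 normalised reads, and replicate 1 of the mutants at day 5 had the highest level in its group of all 12 family members.

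The 7 genes lie at 5 places in the genome (build WBcel235), none inside a protein-coding gene. mir-48 (chromosome V, 14364412 to 14364509) and mir-241 (chromosome V, 14366188 to 14366283) are neighbours on the minus strand, 1678 bases apart. mir-795 (chromosome I, 12594569 to 12594657) and mir-794 (chromosome I, 12595690 to 12595773) are neighbours on the plus strand, 1032 bases apart. mir-84 (16022404 to 16022478, minus strand) and mir-793 (13857962 to 13858053, plus strand) stand alone on chromosome X. let-7 is annotated as a gene of 1732 bases (chromosome X, 14743590 to 14745321, minus strand), which overlaps the small protein-coding gene C05G5.7 on its own strand and the noncoding gene C05G5.8 on the other.

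Levels are given as the authors' normalised reads. A read covers a whole mature microRNA, so levels of different members need no correction for length, but the unequal ligation of different sequences is not corrected. Because the mature sequences of relatives are alike, reads of one could be assigned to another, which was not tested.

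miR-48-5p (cel-miR-48-5p in the table), one of the regulators of HBL-1, made up most of the family's reads in every group. In N2 it was at 86261, 91268 and 77557 normalised reads in replicates 1 to 3 at day 0 and at 168456, 80970 and 98997 at day 5. In the mutants it was at 140056, 48194 and 99824 at day 0 and at 317598, 127026 and 161514 at day 5. The day 0 and day 5 levels overlapped in both strains. By group mean it was the microRNA of rank 7 among the 213 in N2 at day 0 and of rank 2 at day 5. In the mutants it had rank 6 and then rank 3. Ranks are not on the same base in the 2 strains. miR-71-5p had rank 3 in N2 at both ages but ranks 122 and 111 in the mutants.

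let-7-5p (cel-let-7-5p), the founding member, was high at day 0 and low at day 5. Its levels in N2 were 16171, 13279 and 10907 at day 0 and 3940, 4025 and 4696 at day 5. In the mutants they were 15818, 9258 and 10933 at day 0 and 9479, 3608 and 3701 at day 5. The days did not overlap in N2, whereas in the mutants replicate 1 at day 5 lay above replicate 2 at day 0. Group means ran in the order N2 day 5, mutant day 5, mutant day 0 and N2 day 0, and the ranges of each neighbouring pair in that order overlapped.

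miR-241-5p (cel-miR-241-5p), encoded beside mir-48, had a pattern over the groups like that of let-7-5p. Its levels in N2 were 3042, 4382 and 3193 at day 0 and 1639, 826 and 927 at day 5. In the mutants they were 3731, 2744 and 3340 at day 0 and 2613, 1342 and 1400 at day 5. Every day 5 library lay below every day 0 library of its strain. The other strand of the hairpin, miR-241-3p, was at 284 to 344 in N2 at day 0 and 77.0 to 168 at day 5. In the mutants it was at 267 to 388 and then at 165 to 321.

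miR-84-5p (cel-miR-84-5p), which acts with miR-48 and miR-241 in the larva, was at 9622, 9604 and 7253 in N2 at day 0 and at 6510, 7196 and 10457 at day 5. In the mutants it was at 21416, 4957 and 12732 at day 0 and at 35451, 13488 and 20724 at day 5. The 2 ages overlapped within each strain, and the 3 mutant libraries at day 5 were all above the 3 N2 libraries of that day.

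The remaining relatives were scarcer. miR-793 was at 453, 335 and 322 in N2 at day 0 and at 157, 154 and 184 at day 5, and for mutants at 1233, 230 and 747 and then at 1538, 631 and 689. miR-795-3p was at 42.2, 42.4 and 23.9 in N2 at day 0 and at 12.3, 10.1 and 8.65 at day 5, and for mutants at 163, 43.1 and 93.8 and then at 141, 32.2 and 38.5. Both were lower at day 5 than at day 0 in every N2 library, and both were higher in every mutant library than in any N2 library at day 5.

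**Figure D1:**
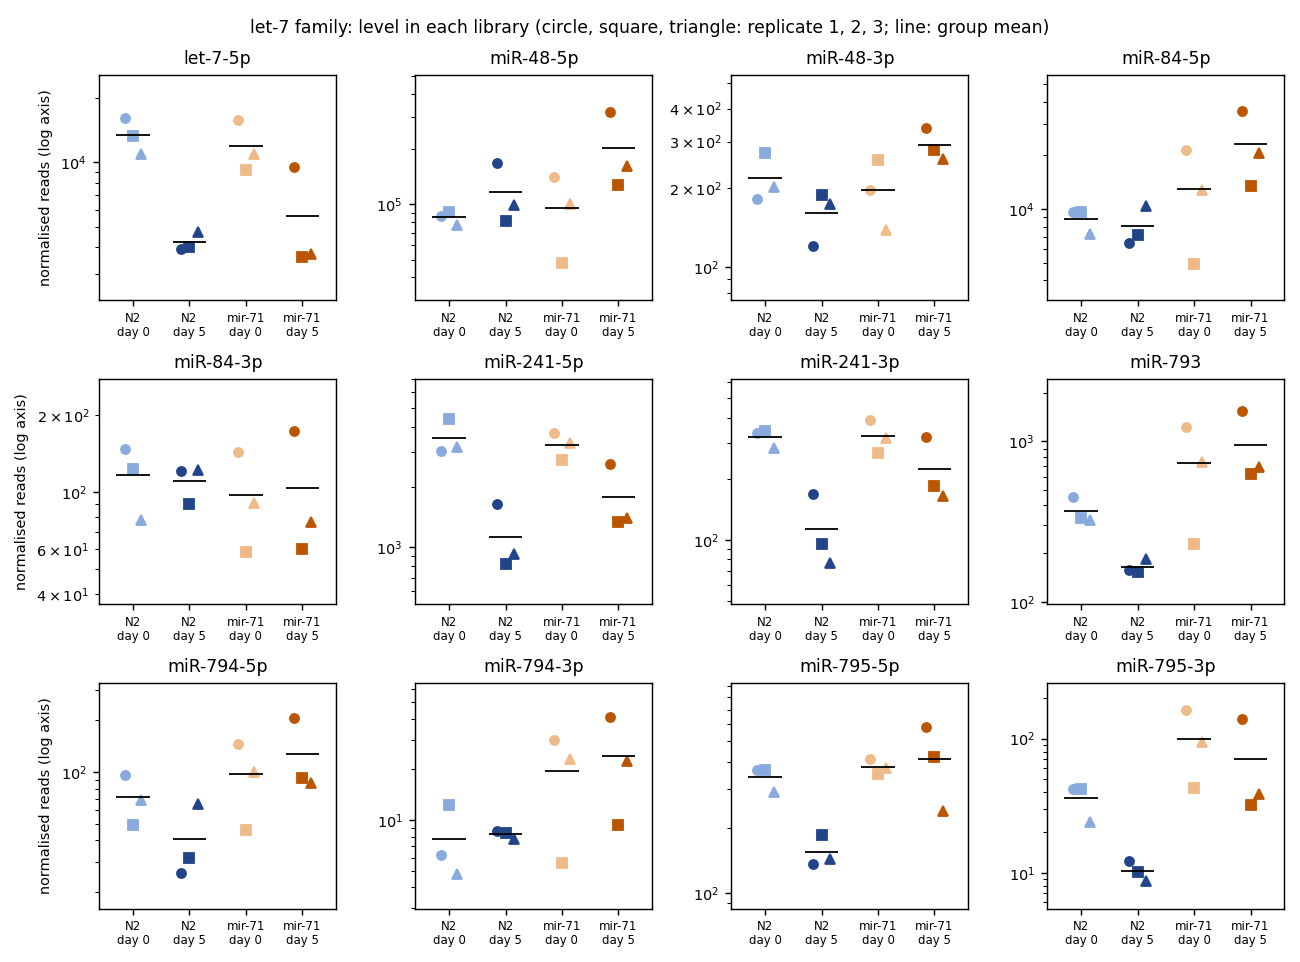
Level of each of the 12 family members in normalised reads (log axis) in every library of the 4 groups; symbols mark replicates 1 to 3 and lines the group means. let-7-5p, miR-241-5p and miR-241-3p sit lower at day 5 than at day 0 in N2 without overlap, while miR-48-5p stays the most abundant member in every group.

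The first comparison asked how the family differed between day 0 and day 5 in N2. let-7-5p, both strands of miR-241 and both strands of miR-795 fell, and no member rose. let-7-5p fell by 1.66 ± 0.43 on the log2(normalised reads + 1) scale (SE, n = 3 libraries per group; limma, adjusted p = 0.013). The decrease was 1.69 ± 0.40 for miR-241-5p (limma, adjusted p = 0.0101), and miR-241-3p dropped by 1.57 ± 0.41 (adjusted p = 0.0131). miR-795-3p fell by 1.68 ± 0.59 (limma, adjusted p = 0.0479) and miR-795-5p fell by 1.15 ± 0.39 (adjusted p = 0.0444).

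These 5 of 12 members, 41.7%, stand beside a background of 23.5% called among all 213 microRNAs, 16% lower and 7.51% higher. The median log2 difference was −1.003 over the members and −0.48 over all microRNAs. miR-48-5p, at 0.38 ± 0.49, and miR-84-5p, at −0.15 ± 0.51, did not pass (limma, adjusted p = 0.604 and 0.875). miR-793 had −1.15 ± 0.53 and missed the threshold (limma, adjusted p = 0.119), although its 2 ages did not overlap. In all, 6 of the 12 members lay lower at day 5 without overlap, against 34.7% of all microRNAs.

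The N2 calls did not all hold with 1 library left out, which also leaves fewer libraries for the test. Without replicate 2 of N2 at day 0, or without replicate 2 of N2 at day 5, 0 members were called and 4.69% or 10.3% of all microRNAs, and the adjusted p of let-7-5p, miR-241-5p and miR-241-3p then reached at most 0.0587, 0.0596 and 0.0624 (limma). Dropping replicate 1 or 3 of either N2 group left 2 or 3 members called, with 12.2% to 19.2% of all microRNAs. Without replicate 3 of the mutants at day 0, 3 members and 17.8% of all microRNAs were called. let-7-5p, both miR-241 strands and miR-795-3p were called lower under all 4 other ways of scaling the libraries, and miR-795-5p under 2 of them. The 4 fits called 35.2% to 44.1% of all microRNAs.

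In the mutants, 0 of 12 members passed the same test under the authors' scaling, where 13.6% of all microRNAs were called, 9.86% higher and 3.76% lower (limma). The unadjusted p was under 0.05 for 3 of the 12 members and for 65 of the 213 microRNAs, 30.5%. At day 5, 1 member lay lower without overlap, miR-241-5p, and 1 higher, miR-48-3p, against 8.45% and 18.3% of all microRNAs. miR-48-3p was at 139 to 256 normalised reads at day 0 and at 259 to 337 at day 5, and did not pass (limma, adjusted p = 0.282). let-7-5p had a log2 difference of −1.22 ± 0.43 (limma, adjusted p = 0.0765), miR-241-5p −0.93 ± 0.40 (adjusted p = 0.14) and miR-48-5p 1.09 ± 0.49 (adjusted p = 0.146). Same-numbered mutant libraries were taken as paired from correlations in these data, as the titles give only numbers. With the replicate as a block, let-7-5p fell by 1.22 ± 0.37 (limma, adjusted p = 0.0137) and miR-48-5p rose by 1.09 ± 0.32 (adjusted p = 0.0123). That fit called 31.5% of all microRNAs. let-7-5p and miR-241-5p were also called lower under each of the 4 other scalings, and miR-48-5p was called higher with equal library medians; these fits called 30.5% to 35.2% of all microRNAs. Without replicate 1 of the mutants at day 5, let-7-5p was the only member called lower, in a fit that called 10.3% of all microRNAs.

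The age difference in the mutants minus that in N2 passed for 0 of 12 members (limma, smallest adjusted p of a member 0.398). It also passed for 0% of the 211 microRNAs counted without the mir-71 products. The unadjusted p was under 0.05 for 2 members and 25 microRNAs in all. All 12 members had a positive difference under the authors' scaling, and 8 or 9 of 12 under the 4 others; the authors' scaling gave a median of 1.01 on the log2 scale, against 0.70 over all microRNAs, and the others gave 0.26 to 0.47 for the members. A fall of let-7-5p that passed in N2 and not in the mutants is thus not shown to differ between the strains, the difference being 0.44 ± 0.60.

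**Figure D2:**
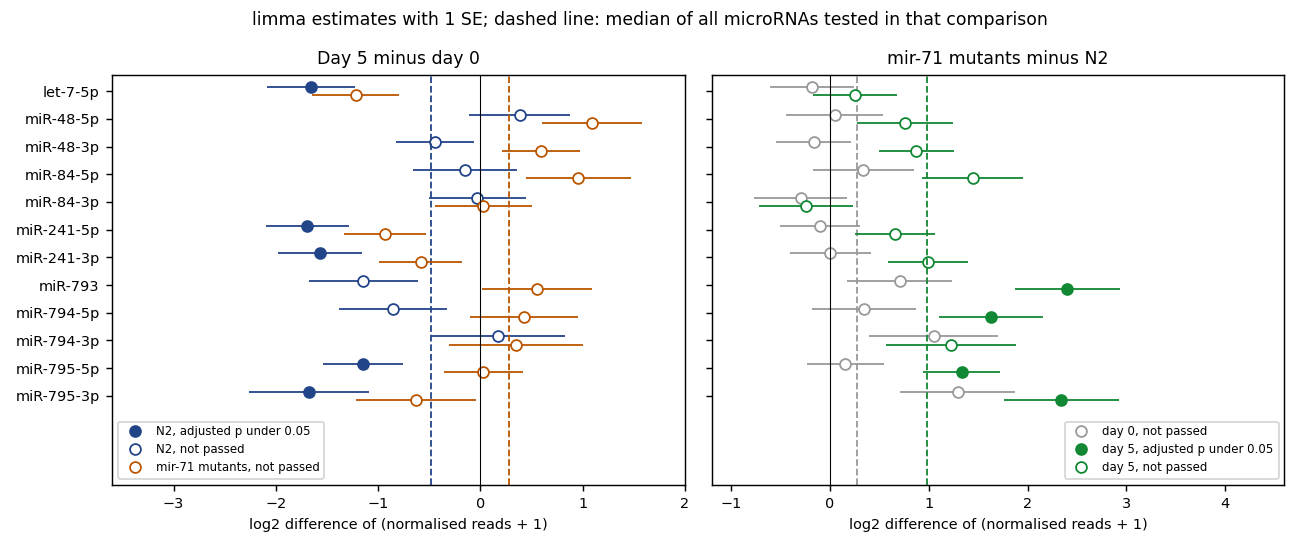
limma log2 differences with 1 SE for the 12 members, day 5 minus day 0 in each strain (left) and mir-71 mutants minus N2 at each age (right); filled points passed an adjusted p of 0.05 and dashed lines are the medians over all microRNAs tested. In N2 let-7-5p, miR-241 and miR-795 lie left of the median line, and at day 5 miR-793 and miR-795-3p lie farthest to the right in the strain comparison.

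Averaged over both strains, 4 of 12 members were lower at day 5 and 0 were higher. These were let-7-5p, with −1.44 ± 0.30 on the log2 scale (limma, adjusted p = 0.00191), miR-241-5p with −1.31 ± 0.29 (adjusted p = 0.0022), miR-241-3p with −1.08 ± 0.29 (adjusted p = 0.00987) and miR-795-3p with −1.15 ± 0.41 (adjusted p = 0.0416). The members' share called lower was 33.3%, while 34.1% of the 211 microRNAs were called, 17.5% lower and 16.6% higher. let-7-5p and both strands of miR-241 were called lower with any 1 of the 12 libraries left out and under all 4 other scalings. Fits with a library left out called 23.7% to 38.4% of all microRNAs, and the other scalings 46.0% to 60.2%. miR-795-3p was called under those scalings but in 3 of the 12 fits with a library left out. miR-48-5p did not pass under the authors' scaling, at 0.74 ± 0.35 (limma, adjusted p = 0.114), and was called higher under 3 of the other 4. With a replicate block, though only the mutant libraries were taken as paired between ages, it was called higher at 0.74 ± 0.23 (limma, adjusted p = 0.0106). That fit called 42.7% of all microRNAs.

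Some tissue markers differed between the ages in N2 as well, under the authors' scaling. The summed level of the mir-35 to mir-42 markers was 23098 to 97947 in N2 at day 0 and 143403 to 238057 at day 5, while the mutants had 14147 to 154730 and then 108135 to 346010. The 3 neuronal markers summed to 1521 to 1990 in N2 at day 0 and 601 to 722 at day 5, while in the mutants they summed to 1361 to 2614 and 1332 to 3238. The muscle marker miR-1-3p was at 80998 to 120775 in N2 at day 0 and 38123 to 56508 at day 5, without overlap as for let-7-5p, and at 49845 to 370872 and then 59109 to 264513 in the mutants. The ranges for intestine and glia overlapped between the ages in both strains. Over all microRNAs, 34.7% lay lower and 12.2% higher at day 5 in N2 without overlap. In the mutants these were 8.45% and 18.3%, and every marker range overlapped between the ages. The part of these markers in the family's differences was not tested.

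The composition of the family within a library does not depend on how libraries were scaled. let-7-5p made up 11.9 ± 1.7% of the family's reads in N2 at day 0 and 3.51 ± 1.16% at day 5, against 10.3 ± 3.1% and 2.33 ± 0.33% in the mutants (SD, n = 3). miR-48-5p went the other way, from 75.8 ± 1.8% to 88.2 ± 4.1% in N2 and from 75.4 ± 2.6% to 86.0 ± 0.4% in the mutants. miR-241-5p went from 3.15 ± 0.52% to 0.862 ± 0.055% in N2 and from 2.92 ± 1.09% to 0.787 ± 0.109% in the mutants. For these 3 members the 2 ages did not overlap in either strain.

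With the days permuted within each strain, the share of let-7-5p fell by 8.22 percentage points, that of miR-241-5p fell by 2.21 points and that of miR-48-5p rose by 11.5 points. Each had p = 0.005, the smallest that the 400 arrangements can give, and 0.012 after adjustment over the 12 members (two-sided exact permutation test). In all, the shares of 9 members passed, 8 lower and 1 higher, but shares sum to 100 within a library and so cannot move independently. miR-84-5p did not pass, at 7.83 ± 0.52% and 6.76 ± 2.83% in N2 and 9.67 ± 2.10% and 9.92 ± 0.94% in the mutants (exact permutation test, adjusted p = 0.725). Without replicate 1 or replicate 3 of the mutants at day 5, 5 shares passed: let-7-5p, miR-48-5p, both miR-241 strands and miR-795-3p. Within 1 strain, 3 against 3 libraries cannot give a p below 0.1.

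The family as a whole took 6.31 ± 1.29% of all microRNA reads in N2 at day 0 and 7.08 ± 1.41% at day 5, with 5.92 ± 0.66% and 7.59 ± 0.27% for the mutants (SD, n = 3). All microRNA reads here include miR-71-5p, which was at 90221 to 173431 normalised reads in N2 and at 52.5 to 189 in the mutants. The shares of the 2 strains are therefore not on the same base. The age difference over both strains was 1.23 percentage points and did not pass (two-sided exact permutation test, p = 0.065, adjusted over 5 comparisons 0.25).

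mir-48 and mir-241, though neighbours, gave mature products that parted with age. The log2 ratio of miR-241-5p to miR-48-5p was −4.82, −4.38 and −4.60 in N2 at day 0 and −6.68, −6.61 and −6.74 at day 5. In the mutants it was −5.23, −4.13 and −4.90 at day 0 and −6.92, −6.56 and −6.85 at day 5. Every day 5 ratio lay below every day 0 ratio, a 4.14-fold difference over both strains. let-7-5p to miR-48-5p differed 4.52-fold in the same direction, from a mean log2 ratio of −2.68 to −4.72 in N2 and from −2.91 to −5.22 in the mutants.

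let-7-5p was also lower at day 5 relative to miR-84-5p, by 3.59-fold, with mean log2 ratios of 0.60 and −0.91 in N2 and 0.08 and −2.10 in the mutants. Each of these 3 ratios had p = 0.005, the smallest possible, but 0.05 after adjustment over 30 tests of ratios (two-sided exact permutation test). That is not under the threshold. The 30 included tests of 3 against 3 libraries, which cannot go below 0.1, so with only these 3 ratios at the smallest p the adjustment could not give less. Member shares were adjusted within each comparison, over 12 members, so the 2 outcomes are not alike in strictness. The ratio of miR-84-5p to miR-48-5p differed by −0.33 on the log2 scale (exact permutation test, p = 0.17). That of miR-241-5p to miR-241-3p differed by −0.24 (exact permutation test, p = 0.07), and that of miR-795-5p to miR-795-3p by 0.59 (p = 0.125).

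**Figure D3:**
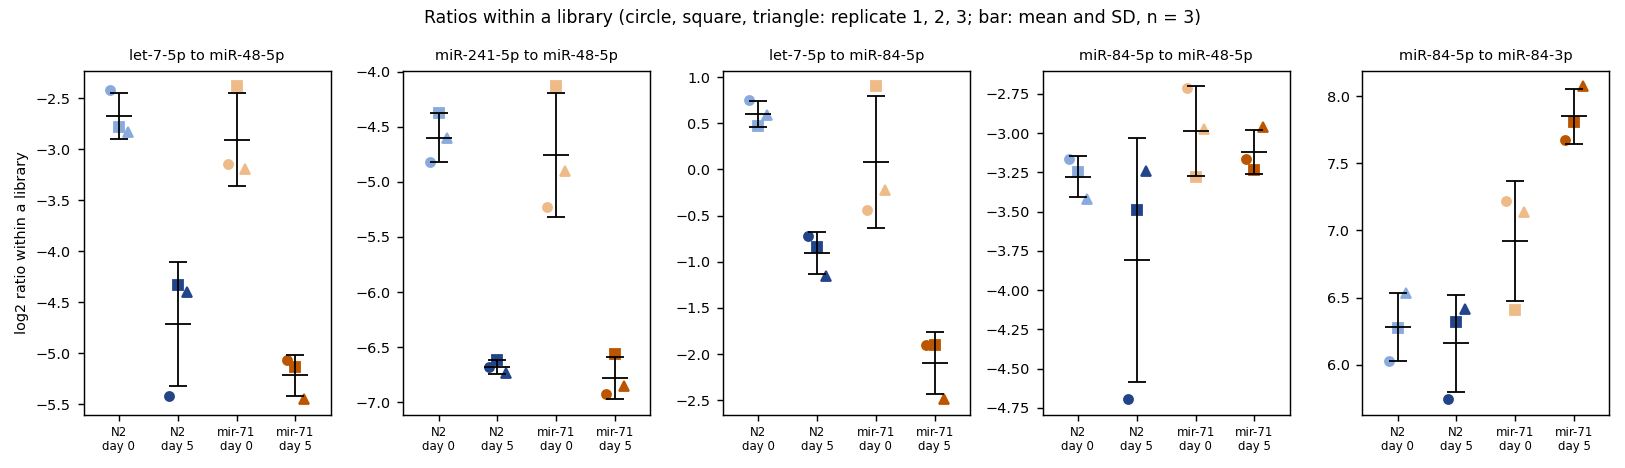
log2 ratios of family members within each library, by group, with the mean and SD of 3 libraries; symbols mark replicates 1 to 3. let-7-5p and miR-241-5p relative to miR-48-5p are lower at day 5 in both strains without overlap, and miR-84-5p relative to miR-84-3p is highest in the mutants at day 5.

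The next comparison set mir-71 mutants against N2. At day 0, 0 of 12 members passed and 0% of the 211 microRNAs (limma); the unadjusted p was under 0.05 for 1 member, miR-795-3p, and 5 microRNAs in all. The smallest adjusted p of a member was 0.966. miR-48-5p had a log2 difference of 0.05 ± 0.49, let-7-5p −0.18 ± 0.43 and miR-795-3p 1.29 ± 0.59.

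At day 5, miR-793, both strands of miR-795 and miR-794-5p were higher in the mutants under the authors' scaling. The log2 difference was 2.403 ± 0.534 for miR-793 (limma, adjusted p = 0.0113) and 2.34 ± 0.59 for miR-795-3p (adjusted p = 0.0131). It was 1.63 ± 0.53 for miR-794-5p (limma, adjusted p = 0.0391) and 1.33 ± 0.39 for miR-795-5p (adjusted p = 0.0248). These were 4 of 12 members, 33.3%, where 22.7% of all microRNAs were called higher and 0% lower. miR-794-5p was at 25.7, 31.5 and 64.8 normalised reads in N2 and at 206, 92.5 and 85.9 in the mutants, and miR-795-5p at 136, 186 and 144 and at 580, 422 and 239. Neither overlapped between the strains, and 7 of the 12 members lay higher without overlap, as did 40.8% of all microRNAs.

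Most microRNAs lay higher in the mutants at day 5 under the authors' scaling, with a median log2 difference of 0.98 over all and 1.11 over the members. Relative to that median miR-793 had 1.42 and miR-795-3p 1.36. Under the 4 other scalings those 2 were called higher each time, at 1.40 to 1.73 and 1.38 to 1.69, while miR-794-5p and miR-795-5p were called under none. These fits called 10.9% to 14.2% of all microRNAs. let-7-5p had 0.25 ± 0.43 under the authors' scaling and a negative difference under the other 4. miR-84-3p, at −0.24 ± 0.47 under the authors' scaling (limma, adjusted p = 0.705), was called lower under the other 4, at −0.91 to −1.24.

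Tissue markers differed alongside. At day 5 the summed levels in N2 and in the mutants were 38123 to 56508 and 59109 to 264513 for muscle, 620 to 1928 and 2020 to 4945 for intestine, 19814 to 35589 and 36567 to 102936 for glia, and 601 to 722 and 1332 to 3238 for neurons. All 4 lay higher in the mutants without overlap under the authors' scaling, as did 40.8% of all microRNAs. The germline and embryo markers overlapped. The part of these markers in the strain difference was not tested, and they were not compared under the other scalings.

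These calls, too, did not all hold with 1 library left out. Without replicate 1 of the mutants at day 5 or replicate 2 of N2 at day 5, 0 members were called, with 0.474% and 1.42% of all microRNAs. Without replicate 1 of N2 at day 5, miR-793 was the only member called, with 2.84% of all microRNAs. Same-numbered libraries of the 2 strains were likewise taken as paired from correlations in these data. With the replicate as a block, 6 members were higher and 45.5% of all microRNAs were called. The 2 added members were miR-84-5p, with 1.45 ± 0.41 (limma, adjusted p = 0.00792; 0.0506 without the block), and miR-241-3p, with 0.99 ± 0.36 (adjusted p = 0.0275). Neither was called under any of the 4 other scalings, where miR-84-5p had 0.44 to 0.77 and miR-241-3p −0.00995 to 0.32.

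**Figure D4:**
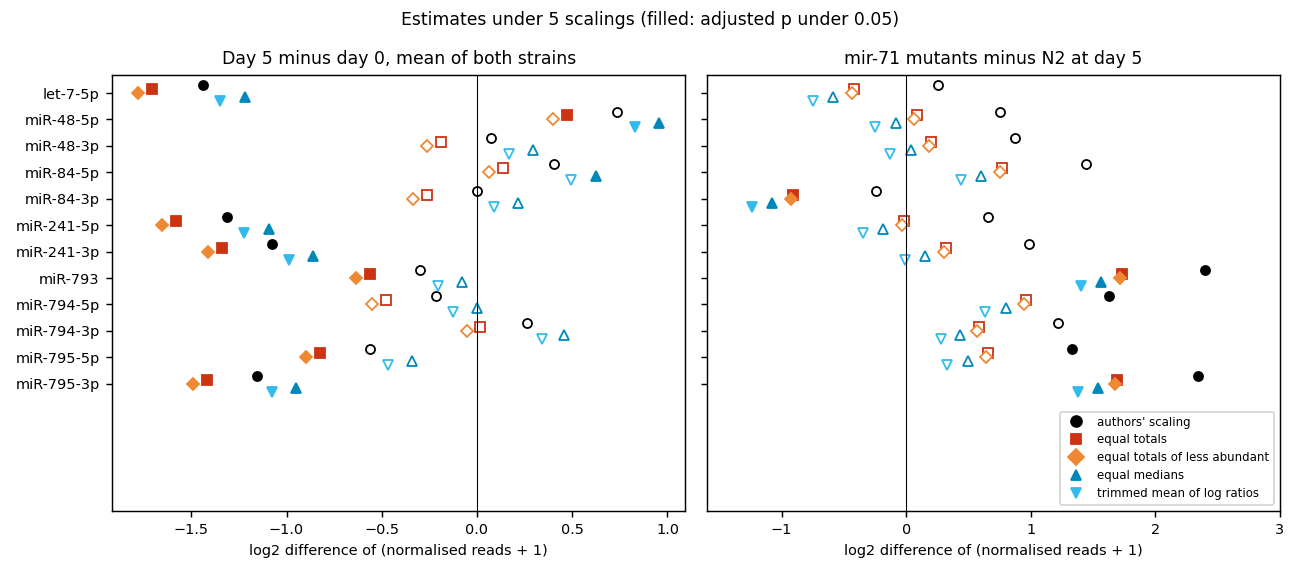
log2 differences of the 12 members under the authors' scaling and 4 others, for day 5 minus day 0 as the mean of both strains (left) and mutants minus N2 at day 5 (right); filled symbols passed an adjusted p of 0.05. let-7-5p, both miR-241 strands and miR-795-3p are filled under all 5 scalings on the left, and miR-793 and miR-795-3p on the right.

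The 2 strands of mir-84 stood in different proportions in the groups. Reads of miR-84-5p per read of miR-84-3p numbered 65.2, 77.6 and 92.8 in N2 at day 0 and 53.7, 80.0 and 85.2 at day 5. In the mutants they numbered 149, 84.8 and 141 at day 0 and 204, 224 and 269 at day 5. The mutants at day 5 lay above every other library, a pattern picked out after the values were seen and given without a test. Over the 12 libraries the same ratio ran from 7.26 to 12.8 for miR-241, from 2.56 to 18.4 for miR-795, from 3.00 to 15.6 for miR-794 and from 188 to 1403 for miR-48.

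Of the other heterochronic microRNAs, 3 of 4 listed were matched. lin-4-5p, the founding microRNA of that pathway, which lowers lin-14, had −0.88 ± 0.39 in N2 (limma, adjusted p = 0.108) and 0.09 ± 0.39 in the mutants (adjusted p = 0.897). Its relative miR-237-5p fell by 1.73 ± 0.44 in N2 (limma, adjusted p = 0.0127) and miR-237-3p fell by 2.71 ± 0.61 (adjusted p = 0.00932). Thus 2 of the 3 fell in N2 and 0 rose, where 16% of all microRNAs fell. In the mutants 0 passed, where 13.6% of all did, and miR-237-5p had −1.26 ± 0.44 (limma, adjusted p = 0.0765). With the replicate block miR-237-5p and miR-237-3p fell there too (limma, adjusted p = 0.0113 and 0.00786), as they did under all 4 other scalings. These fits called 30.5% to 35.2% of all microRNAs. At day 5 lin-4-5p was higher in the mutants by 1.14 ± 0.39 (limma, adjusted p = 0.0482), where the median over all microRNAs was 0.98 and 22.7% were called higher. Under the 4 other scalings it had 0.13 to 0.47 and was not called.

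Profiles over the 12 libraries were compared by the root mean square distance of centred log2 values among 170 microRNAs with a mean of 20 or more. For this, the values of each library were first divided by its median, not left under the authors' scaling. The profile closest to let-7-5p was that of miR-237-5p, at a distance of 0.217, followed by miR-73-5p at 0.302 and miR-235-3p at 0.362, with miR-241-5p next at 0.366. The median distance of the others was 0.883, and miR-48-5p was at place 122 with 1.15. The profiles nearest to miR-48-5p were those of miR-253-3p (0.252), miR-238-3p (0.305) and miR-1829a-5p (0.317), none of them a family member. miR-84-5p was nearest to miR-1829a-5p (0.206), miR-233-3p (0.260) and miR-248 (0.279). miR-241-5p was nearest to its own other strand (0.229), then miR-1819-3p (0.244) and miR-235-3p (0.275). The 12 libraries differ in strain, age and depth, which these distances do not separate. The distances carry no test.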

How the data were processed

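Small RNA of whole worms was sequenced after size selection, per the labels. The submitters' processing notes name STAR 2.4.0h, DESeq2 and build WBcel235. How reads were trimmed and counted, and against which microRNA release, is not given in the sources used here. Values deposited by the authors are read counts after normalisation, treated as a signal, for 213 microRNAs in 12 libraries. They also deposited log2 values, whose transformation is not stated and which served only as an alternative. In every library 100% of the signal values came within 0.001 of some whole multiple of 1 step, taken as the value of 1 read. Reads carry no molecular identifiers. No count test was run.

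Groups and replicate numbers came from the sample titles. Normalised reads plus 1 were put on a log2 scale, on which a scarce microRNA's change appears smaller, and limma 3.58.1 in R 4.3.3 fitted the 4 groups in 1 model, with an intensity trend. Calls used a two-sided Benjamini-Hochberg adjusted p under 0.05 over all microRNAs; errors are limma standard errors. In comparisons over both strains, both products of mir-71 stayed in the fit and in the adjustment over 213 microRNAs. They were left out of the counts and medians, leaving 211. Shares and ratios within a library were compared by two-sided exact permutation (Python 3.11.15, numpy 2.4.6). The procedures were tested on simulated data. Alternatives were other pseudocounts (0.5 and 5), a filter at a mean of 20, the deposited log2 values, other limma settings, a replicate block, each library left out, and 4 scalings: equal totals, equal totals without mir-71 and the 5 most abundant microRNAs, equal medians, and a mean of log ratios trimmed by 30% at each end. For the pairing check, each library's median deviation was subtracted from its deviations from the group means, which the block fits did not do. Same-numbered libraries were taken as paired where every correlation of these deviations was over 0.1. That held in the mutants between ages (0.113 to 0.386) and between strains at day 0 (0.247 to 0.560) and day 5 (0.335 to 0.466), but not in N2 between ages (−0.0195 to 0.128). The titles give only replicate numbers, so the pairing rests on these same data. Differently numbered mutant libraries of the 2 ages had correlations of −0.507 to 0.246. Gene positions are from Ensembl release 115 and RefSeq for WBcel235.

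The microRNAs named are all family members, the heterochronic list (lin-4 and miR-237), the 3 nearest profiles of 4 members, and the tissue markers. miR-71-5p is named as the check of the strain labels. The members and lists were chosen with earlier results of these data known.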

Additional observations from a re-analysis of the deposited data

How the results depend on the processing

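For age in N2, 5 members were called in all. That number was 3 with the deposited log2 values or without the intensity trend (17.8% and 19.7% of all microRNAs called). It was 7 with equal totals (44.1%) and 6 with equal totals of less abundant microRNAs (42.7%). With 1 library left out it was 0 to 6 (4.69% to 31.5%). For age in the mutants, where 0 were called, it was 4 with equal totals (33.3% of all) and 4 with equal totals of less abundant microRNAs (33.8%). It was 3 with equal medians (35.2%) and 2 with the trimmed mean of log ratios (30.5%). With a library left out it was 0 to 1 (2.82% to 20.7%). For the mean of both strains, 4 became 7 with equal totals (60.2% of all). For strain at day 5, 4 became 0 to 5 with a library left out (0.474% to 35.5% of all). The 9 shares that passed for age over both strains became 5 to 9.

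The replicate block gave 2 calls for age in the mutants (1 higher, 1 lower; 31.5% of all called). For age in N2, whose libraries were not taken as paired, it gave 6 (40.4% of all). It left 0 members called for strain at day 0 and for strain by age.

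The strain difference of miR-84-3p at day 5 ran from −0.687 to 0.0696 with a library left out, the sign turning without replicate 2 of the mutants at day 5, and that of miR-241-3p turned to −0.00995 with the trimmed mean. The strain difference in the family's share of reads was taken with miR-71-5p in the total. With a library left out it ran from −1.05 to 0.239 percentage points at day 0 and from −0.178 to 1.23 at day 5. Of 44 pairs of member and comparison never called, 29 changed sign under at least 1 alternative. The causes were not tested. Fits of the compared groups alone equal the full fit for the mean of both strains and for strain by age, and were not run there. With 3 libraries a group and as few as 3 reads, differences of the scarce members carry wide errors.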
